A study of Mus musculus with 3 samples.

Results

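The Obox cluster of mouse chromosome 7 was described in RNA-seq data from 2-cell embryos. It was taken as every 1 kb window of chr7:14800001-16480000 in the mm9 build, which gives 1680 windows of the 2725763 windows on nuclear sequence. The study held 1 group of 3 litters, collected at embryonic day 1.5, and each litter of pooled embryos gave 1 library. The mothers were LSD1 FL/FL, that is homozygous for a floxed allele of the histone demethylase gene LSD1. They were ZP3::Cre negative, so they lacked the transgene that drives Cre recombinase from an oocyte promoter, and their background was mixed with C57/Bl6J. The fathers were wild type CB6 males, whereas the growth protocol names C57/Bl6J. All 3 litters share these alleles, and there was no contrast between conditions. The RNA of each litter was copied into cDNA by SPIA, which amplifies small amounts of RNA at a constant temperature. The libraries held 34014013, 32431630 and 40474940 alignments of 72 bases on nuclear sequence in litters 1, 2 and 3. A read that matches several places may be counted at each of them, so the values are alignments and not reads.

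Obox genes encode homeobox transcription factors that are made mainly in the oocyte and the early embryo of rodents. They arose by repeated tandem duplication and are neighbours of Crx, a homeobox gene of the retina. In the mouse, OBOX proteins are known to act redundantly in zygotic genome activation, the step at which the embryo begins to transcribe its own genes. Obox1, Obox2, Obox5 and Obox7 are known mainly as maternal transcripts, and Obox3 as a transcript of the 2-cell embryo.

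Gene names rest on a match of sequence. The exons of the 84 loci that GENCODE M21 lists between the first and the last Obox locus were laid as 1 rigid pattern over the coverage, at 171758 places. At the best place, all 3158 pairs of identical 72-base sequences from different loci had equal start counts in every litter. The best place more than 100 bases away had equal counts in 1 of 100 pairs. A locus was named where such pairs, or alignments that stopped at its exon edges, bore on it directly. Obox6, Obox8 and Obox4-ps35 were named by exon edges alone. All 3 marker genes given for the cluster, Obox1, Obox3 and Obox5, were covered in every litter.

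The duplicates differ little in sequence, which sets what an alignment of 72 bases can tell apart. The coding exon of 200 bases (199 in Obox2) is printed for 5 genes from the GENCODE M21 transcripts (GRCm38, sense strand, 5′ to 3′), with capitals at bases that differ from Obox1. Obox6 and Obox8 have no exon of this length.
Obox1: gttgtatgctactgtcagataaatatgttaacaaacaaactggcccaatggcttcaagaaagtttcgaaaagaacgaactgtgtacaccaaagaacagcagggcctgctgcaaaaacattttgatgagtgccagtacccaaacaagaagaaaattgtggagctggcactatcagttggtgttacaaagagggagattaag
Obox2: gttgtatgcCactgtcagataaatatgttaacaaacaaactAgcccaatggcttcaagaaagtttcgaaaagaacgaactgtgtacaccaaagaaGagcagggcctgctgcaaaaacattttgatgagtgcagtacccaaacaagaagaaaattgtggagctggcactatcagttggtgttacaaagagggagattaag
Obox3: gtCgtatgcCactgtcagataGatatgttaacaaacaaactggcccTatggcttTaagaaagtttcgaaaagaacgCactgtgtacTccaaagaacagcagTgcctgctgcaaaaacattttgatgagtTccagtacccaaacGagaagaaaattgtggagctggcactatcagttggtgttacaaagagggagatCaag
Obox5: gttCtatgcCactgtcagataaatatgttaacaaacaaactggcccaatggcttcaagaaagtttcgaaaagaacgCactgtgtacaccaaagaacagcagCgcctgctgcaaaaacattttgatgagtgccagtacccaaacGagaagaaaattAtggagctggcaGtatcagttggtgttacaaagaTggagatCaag
Obox7: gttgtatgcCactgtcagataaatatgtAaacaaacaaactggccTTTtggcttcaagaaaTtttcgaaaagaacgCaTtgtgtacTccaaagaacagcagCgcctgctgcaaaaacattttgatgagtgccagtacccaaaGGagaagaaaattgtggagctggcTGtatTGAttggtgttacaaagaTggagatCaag
Over this exon Obox2 was 98.0% identical to Obox1, with 1 base missing. Obox5 was 95.5% identical to Obox1, Obox3 94.5% and Obox7 90.5%. Obox1 and Obox2 lie on the plus strand with Obox5 and Obox7, and Obox3 lies on the minus strand.

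A single 72-base stretch of the coding part of the last Obox3 exon shows how sequence and counts went together. Obox3 and its 6 pseudogenes, Obox3-ps1 to Obox3-ps6, hold it in 3 versions. Capitals mark the base that differs from Obox3, and the sequences are given in sense orientation.
Obox3: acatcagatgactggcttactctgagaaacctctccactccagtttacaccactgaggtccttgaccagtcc
Obox3-ps1: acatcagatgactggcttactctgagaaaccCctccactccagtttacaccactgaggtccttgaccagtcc
Obox3-ps2: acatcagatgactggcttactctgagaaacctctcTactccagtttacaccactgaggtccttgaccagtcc
The version of Obox3 is also that of Obox3-ps4, and both places (starts at 16211126 and 15641587) had 9, 11 and 17 alignments in litters 1, 2 and 3. The version of Obox3-ps2 and Obox3-ps3 differs from it by 1 base and also had 9, 11 and 17 alignments at each of its places. The version of Obox3-ps1, Obox3-ps5 and Obox3-ps6 had 9, 12 and 18 alignments at each of its 3 places. The 7 places thus carried nearly the same counts, and these alignments do not say which locus was transcribed. A second stretch is identical in Obox5, Obox7 and Obox3-ps2 and is shown because it joins genes of both strands.
Obox5, Obox7 and Obox3-ps2: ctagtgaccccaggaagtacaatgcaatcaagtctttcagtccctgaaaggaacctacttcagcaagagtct
It had 3, 4 and 7 alignments in litters 1, 2 and 3 at each of the 3 loci. By contrast, the most often hit coding stretches of Obox8 and Obox6 have no near copy among the placed loci.
Obox8: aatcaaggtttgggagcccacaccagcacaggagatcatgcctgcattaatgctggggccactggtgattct
Obox6: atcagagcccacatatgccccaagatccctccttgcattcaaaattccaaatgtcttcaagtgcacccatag
The Obox8 stretch (chr7:14917302-14917373, in the last exon) had 30, 20 and 23 alignments in litters 1, 2 and 3. The Obox6 stretch (chr7:16420214-16420285, in the middle exon) had 12, 18 and 3.

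Over all Obox coding genes and Obox3 pseudogenes, 3006 of 3006 compared pairs of identical 72-base sequences had equal counts in all 3 litters. With 1 differing base, 30.3% of 4862 pairs were equal, and with 2 differing bases 28.1% of 4700. With 3 the share was 6.14% and with 4 it was 0.542%. With 8 differing bases, 0 of 879 pairs were equal. Pairs with fewer than 10 alignments in all were not compared. A position was therefore called a gene's own where its sequence differs by at least 4 bases from every other placed locus and has no exact copy in another annotated transcript.

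**Figure D1:**
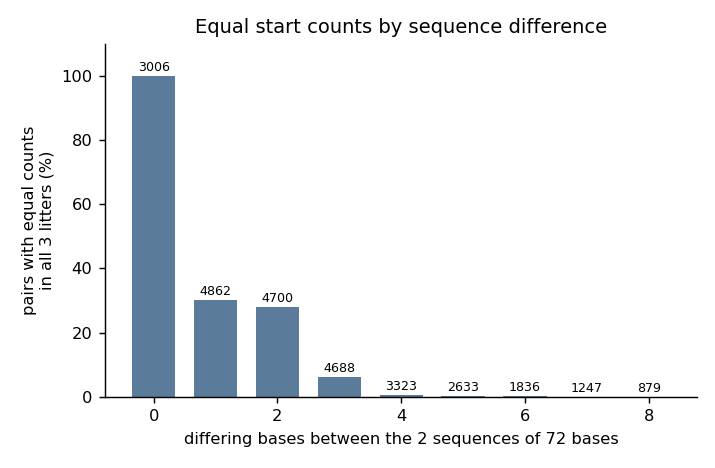
Share of position pairs with equal start counts in all 3 litters (%), by the number of differing bases between their 72-base sequences. Numbers over the bars count the pairs compared. The share is 100% for identical sequences and 0.542% at 4 differences.

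The cluster stood above the rest of its chromosome in every litter. It held 89531, 95141 and 84062 alignments in litters 1, 2 and 3, or 0.255% ± 0.0435 of all nuclear alignments (SD, n = 3). Its level was 1.57, 1.75 and 1.24 RPKM, where RPKM means alignments per kb per 1000000 nuclear alignments. The rest of chromosome 7 had 0.299, 0.330 and 0.291 RPKM. The 2 sets of values do not overlap. In pooled embryos, fewer embryos with a transcript and less of it in each cannot be told apart. The cluster stood 5.24, 5.29 and 4.24 times above the rest of the chromosome, 4.92 ± 0.591 on average, and was higher in 3 of 3 litters. By an exact permutation of the signs of the log2 ratios, two-sided, p was 0.25, and this test can give no smaller p with 3 litters. Among 1568 stretches of 1680 kb on the assembled chromosomes, with a median of 0.210 RPKM, the cluster ranked 26 by level and 12 by expressed windows. It was the highest of 89 such stretches on chromosome 7. Each start of at least 3 alignments was also divided by the number of places with the same counts, a setting chosen after seeing the data. The level was then 1.17 RPKM and the ratio 3.84, above 1 in 3 of 3 litters. At this minimum the counts of 95.8% of nuclear starts recurred, so equal counts need not mean copies. This setting therefore does not show how much copies add.

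Alignments lay in few windows, as they did over the nuclear genome. In all, 99 of the 1680 windows (5.89%) reached 1 RPKM in every litter, against 1.19% of all nuclear windows. These 99 windows held 81.6% of the cluster's alignments, and the nuclear windows at this level held 79.2% of nuclear alignments. In the cluster the top 10 windows held 44.5% and the top 20 held 57.7%. In 774 windows (46.1%) no litter had an alignment, against 79.2% of nuclear windows. Counting error alone leaves a window at 0 with up to 3 alignments, and 3 alignments in 1 kb equal 0.0882, 0.0925 and 0.0741 RPKM in litters 1, 2 and 3. Litter 2 had more windows at 1 RPKM than the others, 299 against 181 in litter 1 and 171 in litter 3. The same order held over the nuclear genome, with 3.17% of windows in litter 2, 2.62% in litter 1 and 2.52% in litter 3.

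**Figure D2:**
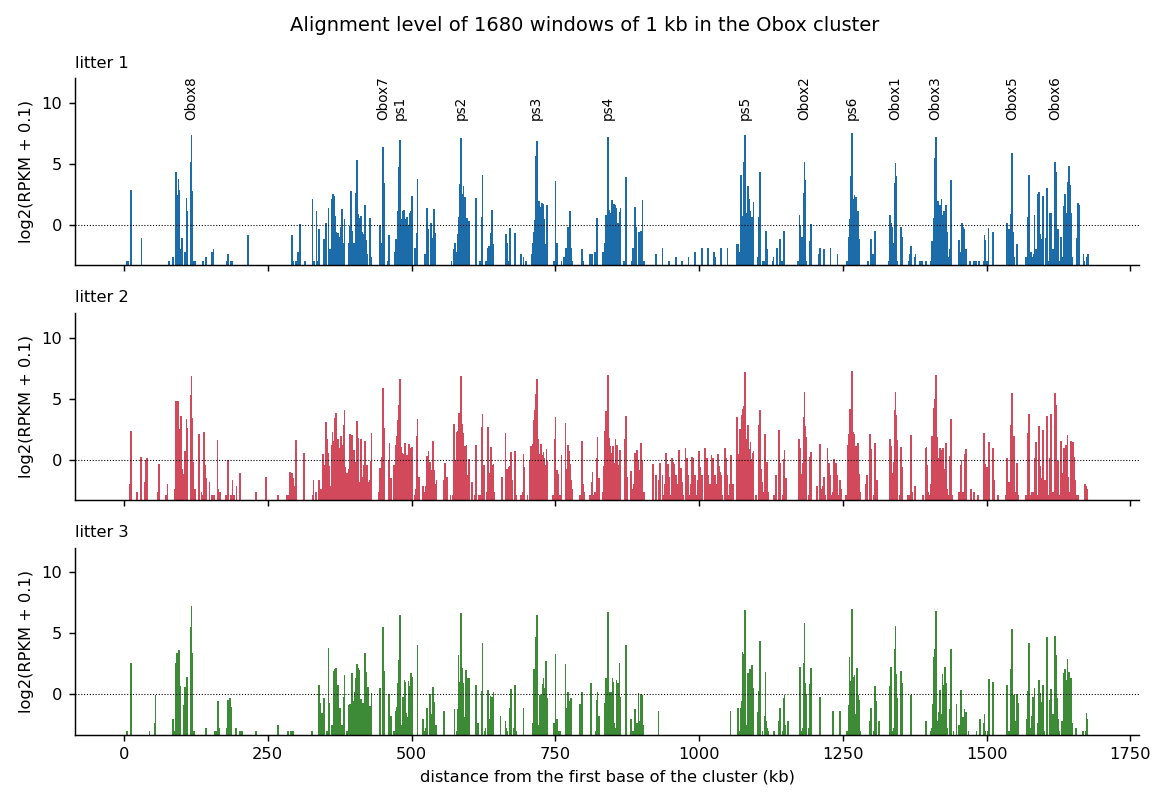
Level of each 1 kb window on the scale log2(RPKM + 0.1) against its distance from the first base of the cluster (kb), 1 panel per litter. The dotted line is 1 RPKM, and ps1 to ps6 are Obox3 pseudogenes. The peaks at the labelled loci stand in all 3 litters, and litter 2 has the most low bars between ps4 and ps5. Of the 1680 windows, 363 reached 1 RPKM in at least 1 litter and 99 in every litter.

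Alignments gathered in short blocks, and those in blocks lay mostly in the blocks that overlap a named exon. A block is a run of bases covered by at least 3 alignments in every litter, with gaps under 100 bases joined. There were 148 blocks with a median length of 197 bases, the longest of 1238 bases, and they took up 2.39% of the cluster. They held 83.7%, 69.7% and 86.6% of its alignments in litters 1, 2 and 3. Without litter 1 there were 223 blocks and without litter 3 there were 258, since a block must be covered in every litter that is used. In 54 of the 148 blocks a named exon was overlapped. The 21 blocks on Obox3 and its 6 pseudogenes held 43.8% ± 6.07 of the cluster's alignments (SD, n = 3). The 21 blocks on the other Obox coding genes held 21.1% ± 3.47, and the 94 blocks with no named exon 10.7% ± 1.19. Of the 10 blocks with the most alignments, 7 were the last exons of Obox3 and its pseudogenes, and the others lay on Obox8, Obox7 and Obox5.

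Obox8 was the highest Obox coding gene. No near copy of its exon positions was found among the placed loci, and no exact copy in another annotated transcript. Sequence outside annotated transcripts was not searched. All 989 start positions in its exons were its own. It had 203, 164 and 197 RPKM over exon positions in litters 1, 2 and 3, or 188 ± 20.9 (SD, n = 3). Its last exon, in the block chr7:14916782-14917502, had 6596, 4902 and 7634 alignments, the most of any block. The level of that exon was 327, 255 and 319 RPKM, whereas the exon before it had 21.6, 31.6 and 19.2 RPKM. Litter 2 was lowest in the last exon and highest in the exon before.

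Obox6, known for raising the yield of reprogramming to pluripotency in mouse cells, was the other gene read almost wholly from its own sequence. Of its 1154 start positions, 1144 were its own. It had 67.2, 75.3 and 47.5 RPKM in litters 1, 2 and 3, or 63.3 ± 14.3. The block on its middle exon (chr7:16419723-16420317) had 1078, 1006 and 1156 alignments, and its SD of log2 level over litters of 0.0791 was among the 5 smallest in the cluster. The block on its last exon (chr7:16418592-16419305) had 1592, 1836 and 1115 alignments and an SD of 0.537. The litters were thus close in one exon and apart in the next.

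Obox3 had 144, 128 and 110 RPKM over its exons in litters 1, 2 and 3, or 127 ± 17.0. Each of its 6 pseudogenes had as much or nearly as much over its annotated exons, from 125 ± 21.2 RPKM at Obox3-ps1 to 174 ± 18.9 at Obox3-ps5. These levels are over unlike positions. The exons of Obox3 include 361 start positions of a non-coding part, with 774, 733 and 323 alignments, that the annotated pseudogene exons lack. The last exon of Obox3 lay in the block chr7:16210441-16211676, with 6432, 4773 and 5153 alignments. The 2 blocks above it were on Obox3-ps5 (chr7:15878652-15879889), with 6842, 5016 and 5296 alignments, and on Obox3-ps6 (chr7:16064875-16066110), with 6774, 4954 and 5224. All 3 blocks were highest in litter 1, and lay close to each other within a litter. The 7 loci together have 6009 start positions but 3882 distinct 72-base sequences. Summed over loci they held 34735, 28157 and 32340 alignments, and with each sequence counted once they held 19158, 16049 and 18077. Counting by place thus raised the total 1.81, 1.75 and 1.79 times.

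The last exon of Obox3 runs past its coding part. The annotated pseudogene exons end at that point, but coverage goes on at some of them. Over 361 positions of this non-coding part Obox3 had 774, 733 and 323 alignments. At the same distance along, Obox3-ps5 had 897, 842 and 363 and Obox3-ps6 had 896, 842 and 363. Counts were equal to those of Obox3 at 112 of 175 compared positions of Obox3-ps5 and at 113 of 175 of Obox3-ps6. Obox3-ps1 had 23, 123 and 35 alignments there, and Obox3-ps4 40, 153 and 39, with 0 equal positions each. Between them lay Obox3-ps2 with 348, 428 and 294 alignments, equal at 9 of 114 compared positions. Obox3-ps3 had 353, 439 and 305, equal at 16 of 116. The 6 pseudogenes were thus not covered alike at the same distance along. The distance was held fixed, and the effect of inserted or missing bases in this part was not tested.

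Obox7 had 95.6, 67.4 and 56.8 RPKM in litters 1, 2 and 3, or 73.3 ± 20.1. The main block on its last exon was chr7:15250617-15251133, with 2973, 1865 and 1912 alignments, and the exon runs on to base 15251345. At its 385 own positions it had only 185, 68 and 10 alignments, or 14.1, 5.45 and 0.642 RPKM. Litter 3 was far below litter 1 at these positions, whereas over all positions it was at about the level of litter 2. The effect of where own positions lie along the exons was not tested.

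Obox5 had 57.8, 47.8 and 45.2 RPKM in litters 1, 2 and 3, or 50.3 ± 6.67. The main block on its last exon was chr7:16343884-16344606, with 2483, 1633 and 1994 alignments, and the exon runs on to base 16345149. At its 812 own positions it had 435, 354 and 354 alignments, or 15.7, 13.4 and 10.8 RPKM. These values were below its level over all positions in every litter. Own positions are only a part of the exons, and the effect of where they lie along them was not tested. Its first exon had 22.9, 16.3 and 24.7 RPKM.

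Obox1 and Obox2 shared many of their start positions. Obox1 had 36.5, 52.3 and 49.6 RPKM in litters 1, 2 and 3 (46.2 ± 8.44), and Obox2 had 35.1, 46.2 and 52.5 RPKM (44.6 ± 8.83). The 2 genes have 619 identical start positions, 50.4% of those of Obox1 and 52.7% of those of Obox2. At these, both had 662, 777 and 1036 alignments. At its 75 own positions Obox1 had 11, 73 and 8 alignments, highest in litter 2. At its 124 own positions Obox2 had 104, 44 and 247 alignments, highest in litter 3. These positions do not isolate the 2 genes. Obox2 was matched over 357 of 357 compared positions of chr7:15982540-15984259, over its last 2 exons, by a place on the unassembled chr7_random contig. Obox1 was matched by the same contig at 168 of 252.

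The order of levels was Obox8, Obox3, Obox7, Obox6, Obox5, Obox1 and Obox2. Over all exon positions, the litters of Obox8 did not overlap those of Obox3, nor those of Obox3 any of Obox7. From Obox7 down, each gene overlapped the next in the order. Since copies were counted at each place, the order below Obox8 is that of places and not of transcripts.

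**Figure D3:**
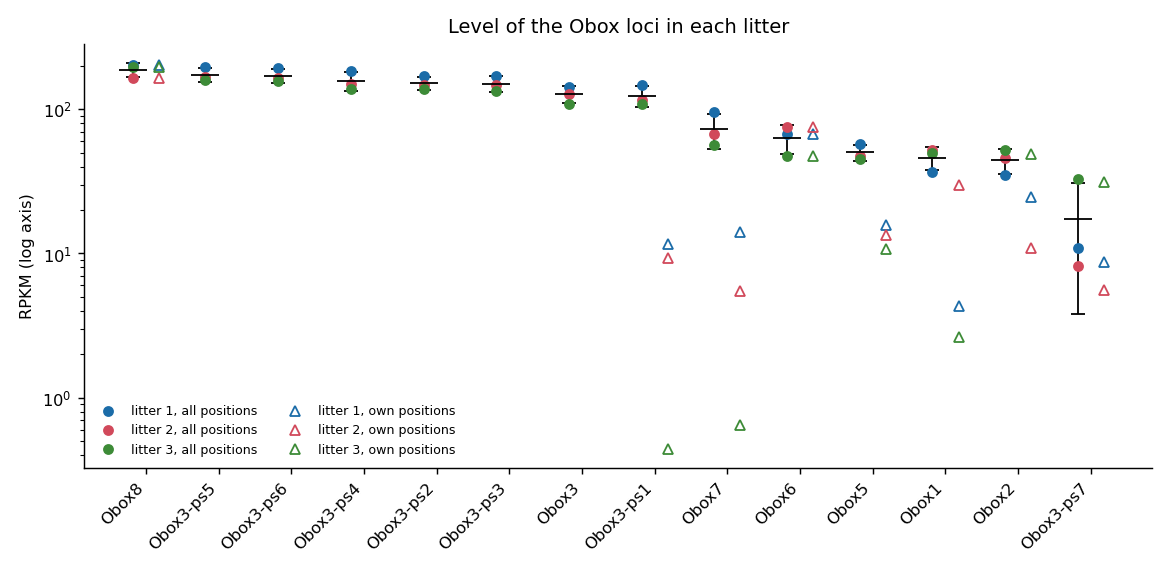
Level of 14 Obox loci in RPKM (log axis), with a filled point for each litter over all exon positions and a bar for the mean and SD (n = 3). Open triangles give the level over a gene's own positions, where there were at least 50 and for all but Obox3. Obox8 is at 188 ± 20.9 on both, whereas the own positions of Obox7 lie between 0.642 and 14.1.

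Obox3-ps7 is a further pseudogene with 2 annotated exons. Its place comes from the rigid pattern alone, so the blocks there are counted among those with no named exon. At that place there were 10.9, 8.17 and 32.7 RPKM in litters 1, 2 and 3, the most in litter 3. The Obox4 loci were lower. GENCODE M21 lists 39 of them in the cluster, all named as pseudogenes, and their places come from the rigid pattern alone except at Obox4-ps35. Over all 39 the level was 0.365, 0.321 and 0.530 RPKM in litters 1, 2 and 3, and 11 had no alignment in any litter. The median locus had 0.0776 RPKM. Obox4-ps35, listed as a lincRNA, was the highest at 12.6 RPKM, with 276, 186 and 262 alignments. Its exon edges were not alike. At the left and right edges of its exon of 245 bases there were 83 and 85 alignments at the 60 start positions just inside, against 0 and 13 at the 60 positions across the edge. At the right edge of its exon of 435 bases there were 80 inside and 1 across, but at the left edge 87 inside and 67 across, so coverage ran on there.

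Alignments stopped at most exon edges. Summed over the exon edges of Obox5, the number of alignments per position across the edge was 0.897% of that just inside, and for Obox7 it was 1.06%. The share was 2.20% for Obox6, 4.35% for Obox8, 4.67% for Obox3, 10.5% for Obox1 and 16.3% for Obox2. Single edges went against these sums. After the first exon of Obox1 and of Obox2 there were 99 alignments across the edge, against 20 just inside. After exon 3 of Obox2 there were 43 across and 78 inside, and at the right edge of exon 2 of Obox8 42 across and 93 inside. A spliced read cannot be placed by an ungapped alignment, so exon ends are undercounted. By the mean over litters, last exons had the most alignments per position in 5 of the 7 genes shown in the coverage plot. The exceptions were Obox1 and Obox5, whose exon of 200 bases was higher, with 76.4 ± 11.0 and 92.3 ± 15.8 RPKM against 68.4 ± 13.1 and 49.7 ± 12.2 in the last exon. In Obox6 litter 3 went the other way, with 42.3 RPKM in the last exon and 54.0 in the middle exon. The annotated first exons of Obox1 and Obox2 were near empty, at 0.932 ± 0.355 and 1.14 ± 0.435 RPKM.

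**Figure D4:**
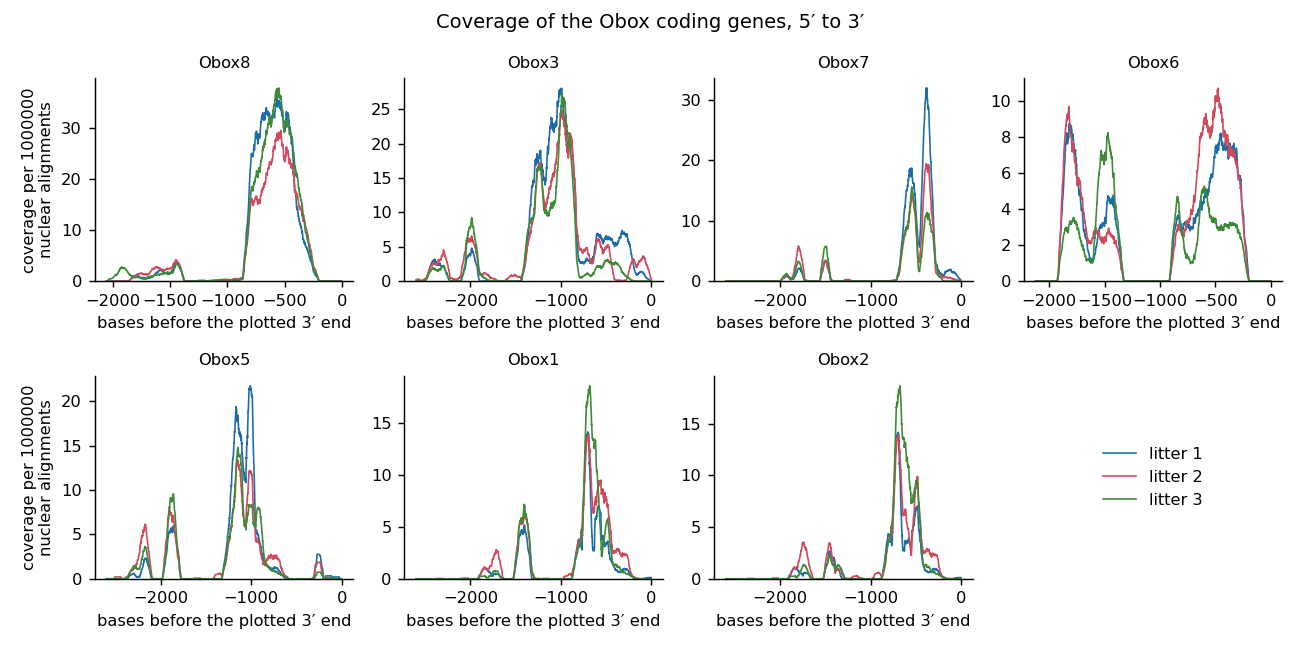
Coverage per 1000000 nuclear alignments along the 3′ part of 7 Obox coding genes, drawn 5′ to 3′ against the distance from the plotted end in bases, with 1 line per litter. Peaks stand on exons with gaps at introns. Obox1 and Obox2 have similar profiles except in the exon of 200 bases (199 in Obox2). It had 76.4 ± 11.0 RPKM in Obox1 and 26.7 ± 4.11 in Obox2.

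Copies could be traced from counts alone. At least 20 alignments in every litter were found at 64 start positions, and at 57 of them (89.1%) the same 3 counts recurred at another place, against a background of 63.7% over the nuclear genome. Of these, 34 recurred inside the cluster, at up to 7 places. With 2 litters in place of 3, all such positions recurred, 107 of 107 without litter 1, 170 of 170 without litter 2 and 79 of 79 without litter 3. The share over the nuclear genome was then also higher, at 87.5%, 88.9% and 85.3%. No chain of 10 positions at a constant distance was found at this minimum. With a minimum of 3 alignments, chosen after seeing the data, 4468 positions gave 70 chains, and 95.8% of nuclear positions recurred at this minimum. The longest joined Obox3-ps5 to Obox3-ps6 by 351 equal positions, and 659 of 718 compared positions along it (91.8%) were equal. The next 4 joined Obox3-ps2 to Obox3-ps3 (235), Obox3-ps4 to Obox3-ps5 (234), Obox3-ps3 to Obox3 (228) and Obox3-ps4 to Obox3-ps6 (223). Along these 4, 60.7% to 66.4% of compared positions were equal. Outside the cluster, Obox3 shared 61 such positions with a place on chromosome 17 (chr17:36589541-36589759). Obox5 was joined to the same place in reverse orientation by 25 positions. In a search of the GENCODE M21 transcripts, 59 Obox3 positions had an exact copy in Obox3-ps8. Whether Obox3-ps8 lies at the place on chromosome 17 was not tested.

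Some blocks belonged to other repeated loci. Those on Gtpbp4-ps1, Gtpbp4-ps2 and Gtpbp4-ps4 to Gtpbp4-ps7, pseudogenes named after a nucleolar GTPase of ribosome assembly, were 176 to 205 bases long and held 3.55% ± 1.35 of the cluster's alignments. Gtpbp4-ps1 had 466, 321 and 644 alignments and Gtpbp4-ps4 468, 340 and 644, so that both were highest in litter 3. They were equal at 57 of 57 compared positions. The 4 blocks on Ranbp2 pseudogenes held 0.364% ± 0.279. Of the annotated start positions of these 6 Gtpbp4 pseudogenes, 2 were identical to a Gtpbp4 transcript, both in Gtpbp4-ps6.

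The spread between litters was below that of the genome. Over windows averaging 100 alignments or more, the coefficient of variation less the counting variance had a median of 53.4% over 102 cluster windows, against 67.3% over 42452 nuclear windows. In windows with a mean of 1000 or more it was 17.5% over 17 windows, against 29.7%, and from 100 to 1000 it was 63.4%, against 75.6%. On the log2(RPKM + 0.1) scale, 30 of the 102 windows (29.4%) were over 2 fold higher in litter 2 than in litter 1 and 10 (9.80%) were over 2 fold lower, against 28.7% and 22.9% of the nuclear windows. In litter 3 against litter 1, 21 windows (20.6%) were higher and 25 (24.5%) lower, against 31.0% and 24.3%. In litter 3 against litter 2, 9 (8.82%) were higher and 40 (39.2%) lower, against 29.0% and 26.9%. Many windows share copies, so they are not independent. Repeated alignments, those at a start already used in the same litter, made up 71.0%, 58.5% and 70.2% in the cluster in litters 1, 2 and 3, against 72.2%, 65.0% and 74.0% over nuclear sequence.

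In the 81 blocks that averaged 100 or more alignments, the SD of log2 level over litters, with a pseudocount of 0.1 RPKM, had a median of 0.54. The 45 blocks on named exons had a median of 0.35, and the 36 others 1.39. Without litter 1 these medians were 0.23 and 1.06, without litter 2 0.35 and 1.06, and without litter 3 0.32 and 1.08. Of the 45 blocks, 21 were on Obox3 and its pseudogenes, which share copies, so the blocks are not independent. The steadiest block was on Obox3-ps4 (chr7:15642609-15642811), with 160, 141 and 173 alignments and an SD of 0.0734. A block on Obox2 (chr7:15982537-15982737) had 130, 148 and 153 alignments and an SD of 0.15. The 5 blocks with the largest SD held no named exon. The first of them, chr7:15168342-15168507, had 19, 425 and 145 alignments and an SD of 2.27. The block chr7:16062728-16062934 had 18, 295 and 29 alignments and chr7:16208294-16208500 had 20, 336 and 35, both beside an Obox3 locus. The blocks chr7:16061617-16061923 and chr7:16207183-16207489 had the same 11, 180 and 162 alignments. All 5 were lowest in litter 1 and highest in litter 2. Those with equal or nearly equal counts may be copies, so these are not 5 independent places. A block just under the limit of 100 alignments, chr7:15203881-15204120, had a larger SD of 2.56. It had 162, 5 and 119 alignments and was lowest in litter 2.

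**Figure D5:**
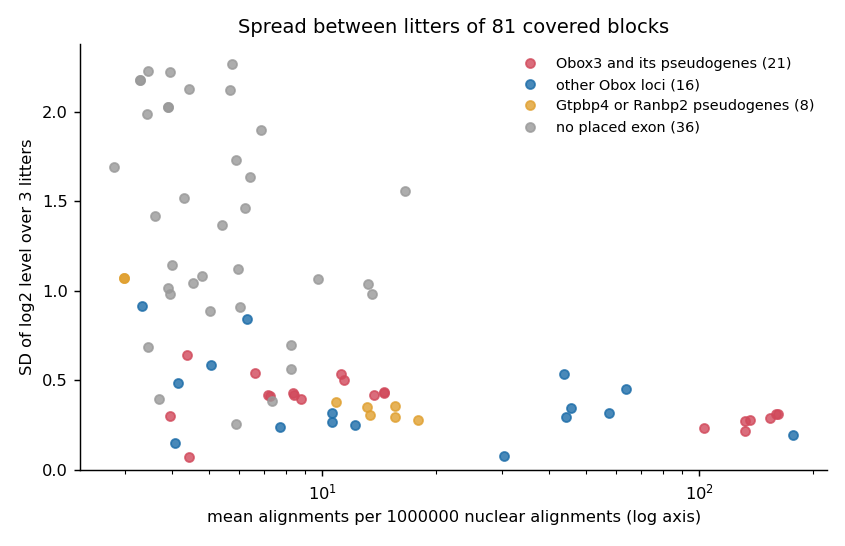
SD of log2 level over 3 litters against mean alignments per 1000000 nuclear alignments (log axis) for 81 covered blocks, coloured by locus. Blocks with no named exon lie highest, up to 2.27, and the Obox8 block at the right end has 0.197.

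Of the 147 gaps between neighbouring covered blocks, 2 were longer than 100 kb, a limit chosen after the values were seen, and litter 2 had the highest level in both. In the whole windows of the longer gap (236 kb, chr7:14919001-15155000), litters 1, 2 and 3 had 411, 1196 and 252 alignments, or 0.0512, 0.156 and 0.0264 RPKM. In those of the other (172 kb, chr7:15702001-15874000), they had 673, 2124 and 60 alignments, or 0.115, 0.381 and 0.00862 RPKM. A single window at the edge of this gap (chr7:15873001-15874000) held 585, 121 and 14 of them. Without it the levels were 0.0151, 0.361 and 0.00665 RPKM, so most alignments of litter 1 lay in that window. In the gap the alignments of litter 2 lay at 1703 start positions, with at most 9 at one position, and in 80 of 172 windows, against 24 windows in litter 1 and 8 in litter 3. Windows with any alignment were also more frequent in litter 2 over the whole cluster and over the nuclear genome, at 46.4% of cluster windows against 32.1% in litter 1 and 29.8% in litter 3, and at 14.0% of nuclear windows against 11.4% and 10.9%. The part of this difference between the libraries in the values of the gaps was not tested.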

How the data were processed

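RNA of 3 litters of 2-cell embryos was amplified with SPIA, per the labels. Alignment was to mm9 and by Bowtie, per the submitters' processing notes. Not given in the sources used here are Bowtie's version and how it treated mismatches and multiple matches. Per the file headers, each deposited file is a coverage (signal) track, in unscaled whole numbers of aligned reads at each base. The files of the 3 litters were not pooled.

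The coverage split exactly into ungapped 72-base alignments, with 0 negative starts. Their strand is unknown. RPKM over a gene uses its exon positions at which a whole alignment can start. Depth was 34014013, 32431630 and 40474940 nuclear alignments, and the limit set by 3 alignments covers counting error only. The start recovery, the search for copies and the spread were tested on simulated data. No annotation of mm9 was used. Gene names come from matching GENCODE M21 transcripts (GRCm38) to recurring counts, with exon edges tolerant by 6 bases, in place of the annotation that the naming rule asked for. The rule named the 10 highest blocks, the 5 blocks with the largest and the 5 with the smallest SD of log2 level, and the 5 longest sets of copies. The cluster, its markers and these choices were set with earlier results of these data known. The only test was an exact sign-flip test. Alternatives were other thresholds, window sizes, scalings, pseudocounts, distinct starts and leaving out each litter. Python 3.11.15, numpy 2.4.6, pandas 2.3.3 and matplotlib 3.10.9 were used.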

Additional observations from a re-analysis of the deposited data

How the results depend on the processing

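The level of the cluster stayed within 1 SD over litters with distinct starts, another scaling, starts of 20 or more divided by their places, and each litter left out. The ratio to the rest of chromosome 7 stayed above 1 in the same settings, except the scaling, which was not run for it. The share of repeated alignments was recomputed only without each litter, and the SD of log2 level per block only with pseudocounts of 0.01 and 1 RPKM (0.54 and 0.52) and, added after seeing the data, without each litter. With starts of 3 or more divided by their places, a setting added after seeing the data, the level was 1.17 RPKM. Expressed windows numbered 149 at 0.5 RPKM and 61 at 2 RPKM, 152 with windows of 500 bases, 59 with windows of 2000 bases and 164 with distinct start positions. The share over all nuclear windows in the same settings was 1.59%, 0.848%, 0.902%, 1.59% and 1.83%. Blocks numbered 270 at a coverage of 1 and 98 at a coverage of 10. Recurring starts numbered 664 of 675 (98.4%) at a minimum of 10 and 4454 of 4468 (99.7%) at a minimum of 3, against 83.8% and 95.8% over the genome, and no start reached 50. The median spread was 87.0% at a mean of at least 20 alignments, 20.8% at 500 and 23.7% with distinct start positions, against 100.4%, 36.7% and 36.2% over the genome. Leaving out 1 litter gave 1.40 to 1.66 RPKM, a ratio of 4.74 to 5.26, 108 to 143 expressed windows, 180 to 258 blocks, 79 to 170 recurring starts, a spread of 38.8% to 51.7%, an SD of log2 level of 0.40 to 0.49 and a repeated share of 64.4% to 70.6%. The cause of these moves was not tested beyond the settings themselves. No paired analysis was possible because the study holds 1 group. With 3 litters the two-sided exact sign-flip test cannot go below p = 0.25. Positions shared by copies cannot be assigned to 1 locus, and windows under 3 alignments cannot be told from 0.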
